A study of Mus musculus with 8 samples.

Results

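Pf4, Itga2b, Cd9, Selp, Mmrn1, Vwf, Fli1 and Gp1bb are genes used by platelets and by the megakaryocytes that make them. They were taken as a list of 8 symbols, mapped to mouse Ensembl gene identifiers, out of 27318 identifiers in the count tables, and all 8 were found. By identifier they are Pf4 (ENSMUSG00000029373, chromosome 5), Itga2b (ENSMUSG00000034664, chromosome 11), Cd9 (ENSMUSG00000030342, chromosome 6), Selp (ENSMUSG00000026580, chromosome 1), Mmrn1 (ENSMUSG00000054641, chromosome 6), Vwf (ENSMUSG00000001930, chromosome 6), Fli1 (ENSMUSG00000016087, chromosome 9) and Gp1bb (ENSMUSG00000050761, chromosome 16). Their RNA was counted by CEL-seq2, a method that reads the ends of polyadenylated RNA from single cells sorted into plates, in 8 plates of bone marrow LSK cells, the lineage-negative, Sca1-positive, cKit-positive fraction that holds stem cells and multipotent progenitors. All plates hold 1 kind of sample. The cells came from Dach1-GFP mice aged 8 to 16 weeks, which carry the Dach1bio-GFP allele, in which a biotin tag sits at the end of Dach1 and GFP is translated from the same transcript through an internal ribosome entry site. The allele traces back to a targeted clone of C57BL/6 embryonic stem cells, and the marrow was enriched for cKit with magnetic beads before the sort. The fluorescence of each cell was recorded at the sort, so the comparisons are within a plate, between cells with high and low Dach1-GFP, CD150, CD135 (the receptor encoded by Flt3) or cKit, and, among CD135-low cells of the 4 LCE plates, CD48. The labels do not say how many mice gave the cells or which plate came from which mouse, so no p-value here measures spread between mice. P-values of comparisons by 1 protein rest on plate-to-plate spread alone. Models that hold more than 1 protein cut each plate into several sums, and their p-values rest on spread between sums within plates.

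A megakaryocyte commits to platelets by building a set of adhesion receptors and by filling alpha granules with proteins that platelets release. Fli1, a transcription factor of the ETS family, is needed for late megakaryocyte genes. Itga2b (CD41) is the alpha chain of the fibrinogen receptor, and Gp1bb is a chain of the receptor that binds von Willebrand factor. Pf4 (platelet factor 4), Vwf (von Willebrand factor) and Mmrn1 (multimerin 1, which carries coagulation factor V) are granule proteins. Selp (P-selectin) sits in the granule membrane until activation brings it to the surface, and Cd9 is a tetraspanin of platelets and of other cells. Several of these genes are also read in stem cells, and a stem cell subset with Vwf or CD41 is known for a bias towards platelets.

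Of 2987 wells with a sort record and counts, 2712 cells passed the filters, 335 to 340 a plate. The median count per cell was 5627 to 7525 on the 4 LCE plates and 11586 to 13398 on the 4 LC plates. Of the genes of the gate, Kit had a count in 79.8% of cells and Ly6a, which encodes Sca1, in 36.8%. Between high and low terciles of its own protein, Dach1 RNA differed by 1.96 ± 0.16 on the log2 scale (SE), Flt3 by 2.09 ± 0.08 and Kit by 0.34 ± 0.06, with adjusted p of 4.5e-14, 4.3e-24 and 4.7e-05 in edgeR's quasi-likelihood test, while Slamf1, which encodes CD150, was too sparse to test. Of the 2712 cells, 116 carried B lineage genes. The 4 proteins went together across cells: the median within-plate rank of CD135 was 27.5 in Dach1-GFP-high cells and 79.4 in Dach1-GFP-low cells, on a scale from 0 to 100, and that of CD150 was 66.9 and 45.3 in the same cells. The comparisons below reuse the same cells and are not independent of each other.

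A few wells stood apart. Well B9 of plate LC190 held 22693 counts, and with 133 Pf4 counts it held 26.6% of all Pf4 counts of the 8 plates. The same well held 7 of 31 Gp1bb counts (22.6%), 9 of 87 Vwf counts (10.3%), 26 Itga2b counts, 15 Fli1 counts and 13 Cd9 counts, but 3 Mmrn1 counts and 1 Selp count. It had RNA of 6 of 11 genes fixed as marks of mature platelets (Gp9, Gp1ba, Gp5, Treml1, Clec1b and Itgb3). Its within-plate ranks were 99.6 for Dach1-GFP, 99.9 for CD150, 4.56 for CD135 and 52.2 for cKit, so it lay in the high tercile of Dach1-GFP and CD150, in the low tercile of CD135 and in neither tercile of cKit. It was the only well with over 20% of a gene's counts over all plates. Among plates with at least 20 Pf4 counts, wells with over 20% of the plate's counts were also found on LCE407 (29 counts, 33.7% of the plate), LCE409 (22 counts, 25.0%) and LCE410 (5 counts, 23.8%). These 3 wells had CD150 ranks of at least 99.3, Dach1-GFP ranks of at least 95.1 and CD135 ranks of at most 4.26. Results for Pf4 are therefore given with all wells, without well B9, and, where the call changes, without all 4 wells.

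The 8 genes were sparse and unevenly spread over cells. Pf4 had 500 counts in 221 of 2712 cells (8.15%, exact 95% interval 7.15% to 9.24%), and 166 of those cells had 1 count. Itga2b had 998 counts in 584 cells (21.5%), Cd9 784 counts in 551 cells (20.3%), Mmrn1 397 counts in 297 cells (10.95%) and Selp 290 counts in 187 cells (6.90%). Fli1 had 1912 counts in 981 cells (36.2%), Vwf 87 counts in 63 cells (2.32%) and Gp1bb 31 counts in 20 cells (0.737%). Intervals and limits in the text cover counting error only. The 15 cells with the most Pf4 held 50% of its counts, or 46 cells once well B9 was left out. For Gp1bb the number was 5 cells, or 7 without B9. The counts of Itga2b, Cd9 and Fli1 were spread more widely, with 138, 159 and 225 cells for 50%. Empty wells, 3 a plate, held no count of any of the 8 genes. They held at most 42 counts of any kind each, too few to show genes at these levels, so nothing is read from this.

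**Figure D1:**
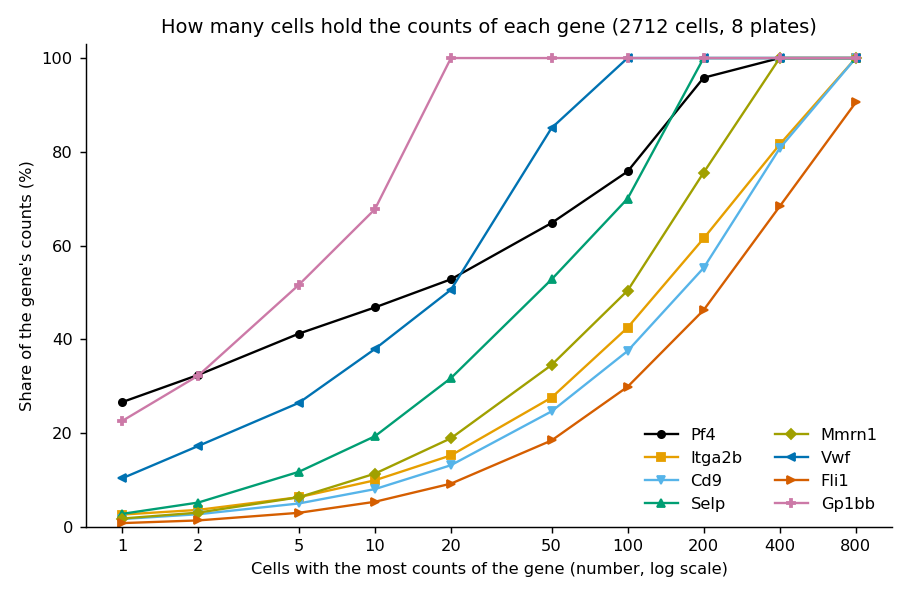
Share of each gene's counts (y axis, %) held by the cells with the most counts of that gene (x axis, number of cells, log scale), over 2712 cells of 8 plates. The curve of Pf4 starts at 26.6% with 1 cell and that of Gp1bb at 22.6%, both set by well B9 of LC190, while those of Itga2b, Cd9 and Fli1 start below 3%.

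Free RNA can give a count in a cell that does not express a gene, so shares of cells are set beside those in B lineage cells, which are not known for platelet granule proteins or CD41. For Fli1 and Cd9, which other blood cells also use, that share is no measure of free RNA. With each cell thinned to 3000 counts, Mmrn1 was seen in 5.46% of 2563 other cells and in 1 of 109 B lineage cells (0.917%, exact 95% interval 0.0232% to 5.01%). Selp was seen in 2.89% of the other cells and 0.917% of B lineage cells, with the same interval, and Cd9 in 8.35% and 3.67% (1.01% to 9.13%), so the B lineage intervals of both hold the share in the other cells. Vwf was seen in 1.01% of the other cells and in 0 of 109 B lineage cells, where 3 counts would be 2.75% and the exact 95% bound is 3.33%. The shares of Pf4 (3.67% and 3.67%), Itga2b (8.31% and 7.34%) and Fli1 (15.8% and 15.6%) were close in the other cells and in B lineage cells. A share of cells with at least 1 count of Pf4 or Itga2b is therefore not read as expression here, and results for these genes rest on summed counts. The sums hold the same counts with no free RNA taken out, so they do not escape this limit. Before thinning, the median depth was 8983 counts in the other cells and 6234 in B lineage cells.

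The level by plate, in CPM, which scales a gene's counts to the total of the plate's kept cells, differed between plates. Mmrn1 averaged 22.4 ± 3.002 CPM on the LCE plates and 10.2 ± 2.49 on the LC plates (SD, n = 4 each), with no overlap. Itga2b went the other way, with 27.6 ± 5.51 CPM on the LCE plates and 39.4 ± 4.46 on the LC plates, also with no overlap. Pf4 ranged from 0.846 to 40.6 CPM over the 8 plates with a median of 10.7, and its highest plate, LC190, came down to 15.1 CPM without well B9. The range over plates was 23.05 to 41.6 CPM for Cd9, 4.71 to 14.1 for Selp, 44.5 to 95.1 for Fli1, 0.444 to 7.29 for Vwf and 0 to 2.70 for Gp1bb. Sets of plates differ in depth and in their sort panel, and their part in these differences was not tested.

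Upstream sequence is shown for Pf4, Itga2b, Cd9 and Mmrn1, the 4 genes that moved together with Dach1-GFP and CD135 in the results that follow. RefSeq promoters on build GRCm38.p6 matched 6 of the 8 genes. The stretches below are the 250 bases before the RefSeq start, 5' to 3' on the strand of the gene, and capitals mark AGGAAG or its reverse complement CTTCCT, the ETS core that Fli1 and its relatives bind. They lie at chr5:90772185-90772434 (forward strand), chr11:102469884-102470133 (reverse strand), chr6:125494761-125495010 (reverse strand) and chr6:60944067-60944316 (forward strand).
Pf4: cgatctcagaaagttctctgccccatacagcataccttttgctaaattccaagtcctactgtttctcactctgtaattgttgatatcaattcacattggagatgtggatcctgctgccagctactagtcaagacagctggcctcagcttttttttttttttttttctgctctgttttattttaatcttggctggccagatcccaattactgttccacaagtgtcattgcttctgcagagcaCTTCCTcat
Itga2b: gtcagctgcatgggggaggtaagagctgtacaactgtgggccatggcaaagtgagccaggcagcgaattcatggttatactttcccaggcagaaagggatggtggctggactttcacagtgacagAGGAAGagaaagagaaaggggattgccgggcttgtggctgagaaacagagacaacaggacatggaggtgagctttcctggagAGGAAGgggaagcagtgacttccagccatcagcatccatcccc
Cd9: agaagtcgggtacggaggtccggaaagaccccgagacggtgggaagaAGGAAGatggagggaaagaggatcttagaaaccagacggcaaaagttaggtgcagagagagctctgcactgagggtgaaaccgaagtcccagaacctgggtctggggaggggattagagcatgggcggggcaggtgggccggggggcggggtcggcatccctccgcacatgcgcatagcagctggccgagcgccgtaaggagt
Mmrn1: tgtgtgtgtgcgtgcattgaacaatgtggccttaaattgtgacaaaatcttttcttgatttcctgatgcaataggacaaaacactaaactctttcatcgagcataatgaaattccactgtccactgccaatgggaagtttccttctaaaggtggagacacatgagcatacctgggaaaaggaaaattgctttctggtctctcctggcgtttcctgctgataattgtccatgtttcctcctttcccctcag
The Itga2b stretch holds the ETS letters 2 times on the forward strand, 125 to 120 and 43 to 38 bases before the start. The Pf4 stretch holds them on the reverse strand 9 to 4 bases before the start, and the Cd9 stretch on the forward strand 203 to 198 bases before. The Selp stretch, not printed, holds them on the reverse strand 64 to 59 bases before the start. Neither the Mmrn1 nor the Gp1bb stretch holds them. None of the 6 stretches holds the GATA letters AGATAA or the RUNX letters TGTGGT on either strand, so no motifs overlapped. Of 32851 RefSeq promoters with the same 250 bases, 29.5% hold the ETS letters, 9.99% the GATA letters and 14.05% the RUNX letters. A match describes the letters and is not a binding site.

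Cells with high Dach1-GFP had more platelet RNA than cells with low Dach1-GFP. Each plate was cut into terciles of fluorescence, counts were summed per plate and tercile, and the sums of high and low terciles were compared across the 8 plates with edgeR's quasi-likelihood test with the plate as a block, adjusted over all genes tested, with 0.05 as threshold. Of the 8 genes, 5 had enough counts for the test, and all of these 5 rose, beside 7.89% of 10317 genes called in either direction. A gene could pass the filter on its high tercile alone, so this count over tested genes supports nothing by itself. Selp, Vwf and Gp1bb were too sparse for the main test. A higher sum over a tercile can mean more cells with the RNA or more RNA per cell, and the sums cannot tell these apart.

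Itga2b had 29.3, 61.5 and 77.2 CPM (lowest, median and highest of 8 plates) in Dach1-GFP-high cells, against 3.46, 18.5 and 23.9 CPM in Dach1-GFP-low cells. The terciles did not overlap. The log2 difference was 1.78 ± 0.15 (SE) with adjusted p = 1.3e-13 in edgeR, and 1.72 without well B9. Cd9 had 31.9, 44.7 and 56.1 CPM in Dach1-GFP-high cells, against 12.0, 16.1 and 30.7 CPM in Dach1-GFP-low cells, again without overlap. It rose by 1.34 ± 0.16 (adjusted p = 2.3e-09 in edgeR). Mmrn1 had 11.3, 26.5 and 40.0 CPM in Dach1-GFP-high cells, against 2.17, 7.69 and 14.8 CPM in Dach1-GFP-low cells. Its high tercile lay above its low tercile on 8 of 8 plates, although the ranges over plates overlapped. It rose by 1.82 ± 0.22 (adjusted p = 6.4e-09 in edgeR).

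Pf4 had 2.55, 20.2 and 88.4 CPM in Dach1-GFP-high cells, against 0, 7.47 and 21.1 CPM in Dach1-GFP-low cells, and was higher in the high tercile on 8 of 8 plates. The spread over plates was wide in both terciles. It rose by 1.97 ± 0.21 (adjusted p = 1.7e-10 in edgeR), and by 1.32 ± 0.28 (adjusted p = 0.00048) without well B9, when 7 of 8 plates were higher and LC190 was not. Without all 4 wells that held over 20% of a plate's Pf4, the difference was 0.95 ± 0.28 (adjusted p = 0.021). Fli1 had 44.9, 67.1 and 123 CPM in Dach1-GFP-high cells, against 41.4, 49.0 and 87.5 CPM in Dach1-GFP-low cells, higher on 8 of 8 plates with wide overlap. It rose by 0.47 ± 0.11 (adjusted p = 0.0015 in edgeR), a call that was lost with cells thinned to 3000 counts (adjusted p = 0.53), on the LCE plates alone (adjusted p = 0.42) and in DESeq2 (adjusted p = 0.075).

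Over all wells, the summed counts of the sparse genes were on the same side. Selp had 143 counts in Dach1-GFP-high cells and 37 in Dach1-GFP-low cells, with 5.52, 17.4 and 19.98 CPM against 2.17, 3.01 and 8.13 CPM over the 8 plates, and was higher on 7 of 8. Tested without the filter on low counts, Selp differed by 1.82 ± 0.28 (adjusted p = 1.5e-08 in edgeR), and DESeq2 gave 1.85 ± 0.43 (adjusted p = 0.0013). Gp1bb had 26 counts in Dach1-GFP-high cells, 19 of them outside well B9, and 3 in Dach1-GFP-low cells, and the high tercile was above the low on 7 of 8 plates with 1 tie. Without the filter its adjusted p was 0.049 in edgeR, and DESeq2 gave 0.24, both with well B9 in the sums. No such fit was made without that well. Vwf had 42 counts in Dach1-GFP-high cells and 21 in Dach1-GFP-low cells, higher on 5 of 8 plates, with an adjusted p of 0.57 without the filter. Outside well B9 it had 33 counts in Dach1-GFP-high cells, with a median of 1.94 CPM against 2.33 in Dach1-GFP-low cells. The high tercile was then above the low on 4 plates, below on 3 and tied on 1.

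**Figure D2:**
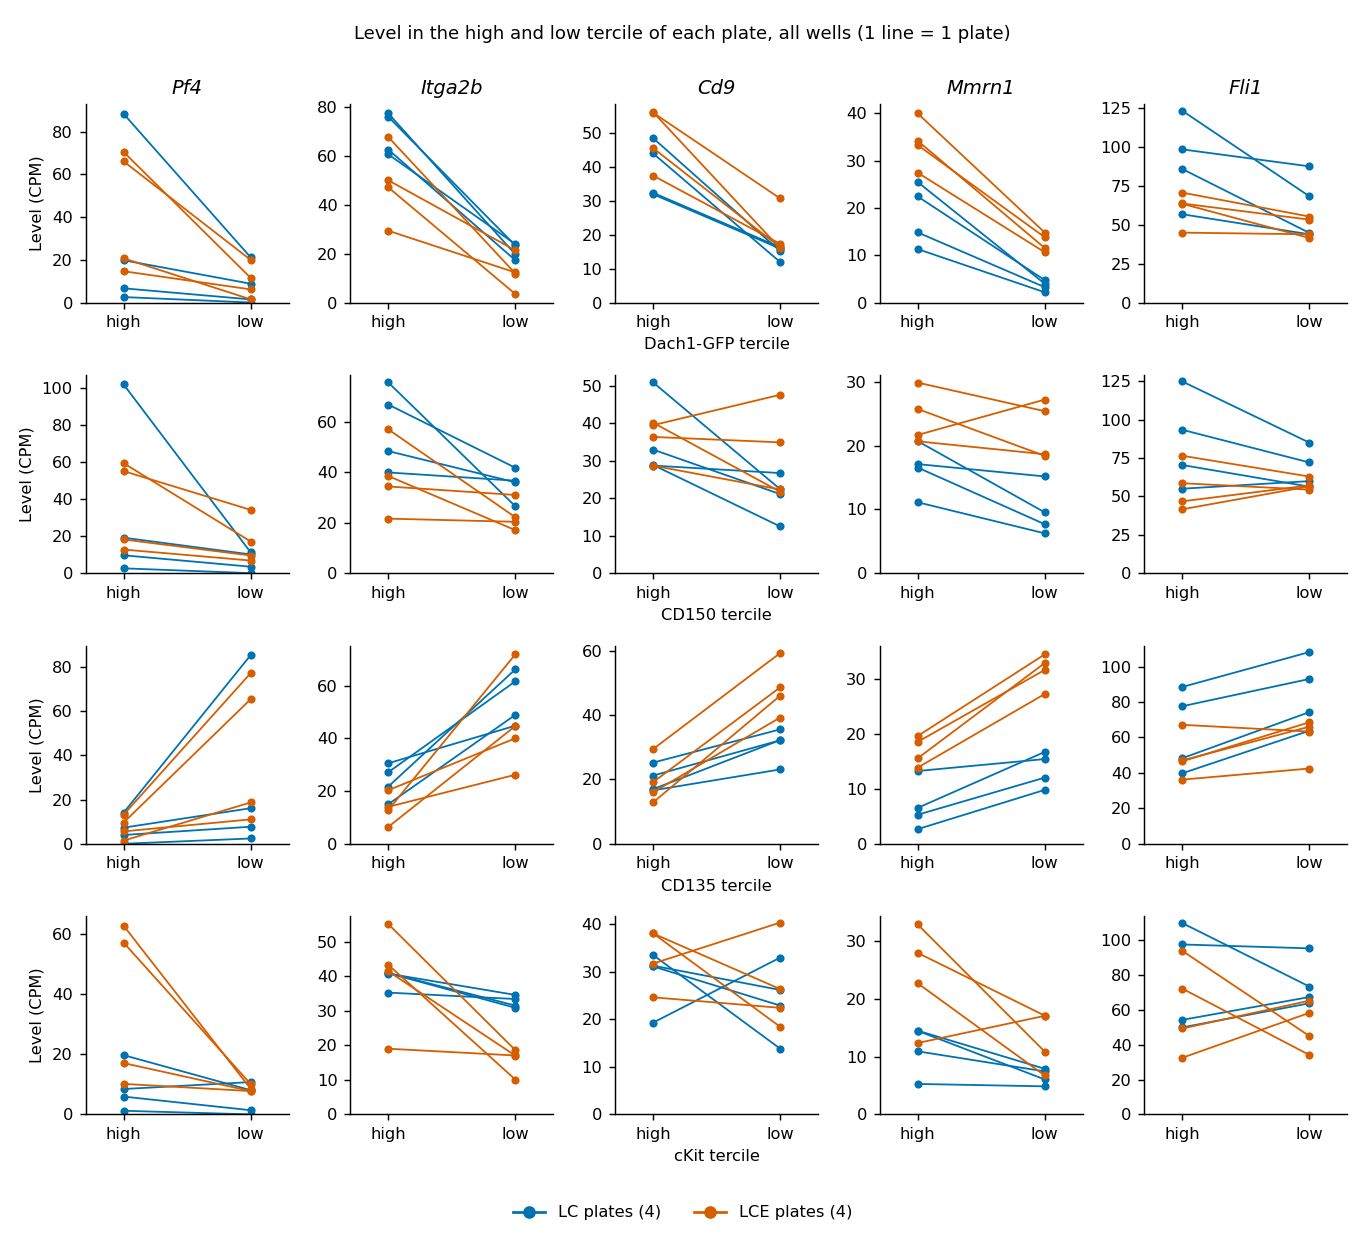
Level (y axis, CPM) of the 5 tested genes in the high and low tercile of each protein, with 1 line for each of 8 plates (LC plates blue, LCE plates orange), all wells. By Dach1-GFP each of the 5 genes is higher in the high tercile on 8 of 8 plates, by CD135 Itga2b, Cd9, Mmrn1 and Pf4 are lower in the high tercile on 8 of 8, and by cKit Fli1 is higher on 4 of 8.

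CD135 gave the opposite direction. Beside 11.2% of 10383 genes called, the 5 tested genes all fell in CD135-high cells, and 4 of them had a log2 difference of at least 0.90 in size. Pf4 had 0, 6.44 and 14.1 CPM in CD135-high cells, against 2.38, 17.4 and 85.3 CPM in CD135-low cells, lower on 8 of 8 plates with overlap. Without well B9 it was lower on 7 of 8 plates and higher on 1. It fell by 2.22 ± 0.23 on the log2 scale (adjusted p = 9.6e-10 in edgeR), by 1.58 ± 0.29 without well B9 (adjusted p = 8.3e-05) and by 1.17 ± 0.28 without the 4 wells (adjusted p = 0.0027). Itga2b had 6.39, 17.7 and 30.5 CPM in CD135-high cells, against 26.2, 46.8 and 71.8 CPM in CD135-low cells. Its terciles touched only in their extremes, and it fell by 1.40 ± 0.16 (adjusted p = 1.6e-08). Cd9 had 12.8, 18.0 and 29.4 CPM in CD135-high cells, against 23.1, 37.4 and 59.2 CPM in CD135-low cells, and Mmrn1 had 2.65, 13.5 and 19.6 CPM against 9.79, 21.96 and 34.4 CPM. Both were lower on 8 of 8 plates with overlapping ranges. Cd9 fell by 0.90 ± 0.16 (adjusted p = 4.4e-05 in edgeR) and Mmrn1 by 0.94 ± 0.21 (adjusted p = 0.0011). On the LC plates alone the values of both missed the threshold, with adjusted p of 0.064 for Cd9 and 0.067 for Mmrn1. Over all alternative settings that could test them, Cd9 was called in 21 of 22 and Mmrn1 in 18 of 21.

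Fli1 fell by 0.38 ± 0.10 in CD135-high cells (adjusted p = 0.011 in edgeR), lower on 7 of 8 plates. The call was lost without B lineage cells (adjusted p = 0.055), without plate LC187 (adjusted p = 0.05002) and in DESeq2 (adjusted p = 0.13). Gp1bb was nearly confined to low CD135: the 31 counts split into 2 in CD135-high cells and 29 in CD135-low cells, 22 of these outside well B9, with the high tercile lower on 7 of 8 plates and 1 tie. Without the filter its adjusted p was 0.0084 in edgeR and 0.080 in DESeq2, again with well B9 in the sums. Selp, by contrast, had 56 counts in CD135-high cells and 92 in CD135-low cells, lower on 6 of 8 plates, and did not pass (-0.73 ± 0.28 without the filter, adjusted p = 0.14). Vwf had 19 counts in CD135-high cells and 46 in CD135-low cells, lower on 5 of 8 plates (adjusted p = 0.18 without the filter).

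CD150 separated fewer of the genes. Beside 2.08% of 10384 genes called, 2 of the 6 genes tested rose in CD150-high cells, Pf4 and Itga2b. Itga2b had 21.7, 44.3 and 75.8 CPM in CD150-high cells, against 17.1, 28.8 and 41.9 CPM in CD150-low cells, higher on 8 of 8 plates with overlap. It rose by 0.71 ± 0.15 (adjusted p = 0.0059 in edgeR) and by 0.65 without well B9 (adjusted p = 0.0096), while DESeq2 gave an adjusted p of 0.10 and the LC plates alone 0.12. Pf4 had 2.59, 18.7 and 102 CPM in CD150-high cells, against 0, 9.81 and 34.2 CPM in CD150-low cells. It rose by 1.66 ± 0.25 (adjusted p = 7.3e-05) and by 1.07 ± 0.22 without well B9 (adjusted p = 0.0050). Without the 4 wells with over 20% of a plate's Pf4, the difference was 0.67 ± 0.26 and missed the threshold (adjusted p = 0.25). The values of Cd9 (0.54 ± 0.16, adjusted p = 0.089), Selp (0.63 ± 0.28, 0.35), Mmrn1 (0.47 ± 0.20, 0.32) and Fli1 (0.16 ± 0.11, 0.63) did not pass in edgeR. Gp1bb had 25 counts in CD150-high cells, 18 of them outside well B9, and 3 in CD150-low cells, higher on 7 of 8 plates with 1 tie. Vwf had 51 counts in CD150-high cells, 42 of them outside well B9, and 16 in CD150-low cells, higher on 6 of 8 plates with 1 tie.

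By cKit, 3 of the 5 tested genes rose, beside 3.68% of 10456 genes called. Pf4 had 1.20, 13.6 and 62.8 CPM in cKit-high cells, against 0, 7.91 and 10.8 CPM in cKit-low cells, and rose by 1.49 ± 0.29 (adjusted p = 0.00041 in edgeR), with or without well B9, which lies in neither tercile. The other 3 wells with over 20% of a plate's Pf4 lie in the cKit-high tercile, and without them the difference was 1.09 ± 0.29 (adjusted p = 0.016). Itga2b had 19.04, 41.0 and 55.2 CPM in cKit-high cells, against 10.1, 24.8 and 34.6 CPM in cKit-low cells, and rose by 0.61 ± 0.16 (adjusted p = 0.017). Mmrn1 had 5.26, 14.5 and 32.8 CPM in cKit-high cells, against 4.85, 7.66 and 17.1 CPM in cKit-low cells. It rose by 0.81 ± 0.24 with an adjusted p of 0.047, close to the threshold. All 3 pairs of terciles overlapped. With 1 plate left out, Pf4 had enough counts for the test in 4 of 8 fits and was called in those 4. The Mmrn1 call was lost without any of the plates LC187, LC188, LCE409, LCE408 or LCE410 (adjusted p of 0.073 to 0.17), and that of Itga2b without LCE409, LCE407 or LCE410 (adjusted p of 0.062 to 0.10). The Cd9 difference was 0.28 ± 0.17 and that of Fli1 0.08 ± 0.13, neither past the threshold. Vwf had 24 counts in cKit-high cells and 33 in cKit-low cells, higher on 2 of 8 plates. Selp had 116 counts in cKit-high cells and 60 in cKit-low cells, higher on 6 of 8 plates. Gp1bb had 15 and 4 counts in the same cells, higher on 5 of 8 plates with 1 tie.

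The size of a difference also depended on where along the rank the RNA sat. By CD150 the level stepped up at the top: over quintiles from low to high, without well B9, Itga2b averaged 29.3 ± 11.8, 23.95 ± 8.45, 26.1 ± 5.68, 24.9 ± 13.0 and 61.7 ± 20.2 CPM (SD, n = 8). Pf4 had 11.9, 9.24, 8.47, 10.03 and 34.2 CPM, with an SD of 32.1 in the top quintile, which still holds the 3 LCE wells with over 20% of a plate's Pf4. By Dach1-GFP, Mmrn1 was higher in each quintile than in the one before, with 5.07, 10.9, 14.8, 21.0 and 28.3 CPM, and Itga2b had 18.4, 16.9, 22.6, 36.4 and 68.1 CPM. Selp had 3.23 and 4.98 CPM in the lowest quintiles of Dach1-GFP and 13.5, 13.0 and 15.4 CPM in the others. Gp1bb by CD135 had 3.57 ± 2.11 CPM in the lowest quintile and at most 0.349 CPM in the others. Selp by CD135 had 12.4, 10.54, 15.7, 9.16 and 3.64 CPM, lowest in the top quintile. These shapes are descriptions of the means over plates and were not tested.

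**Figure D3:**
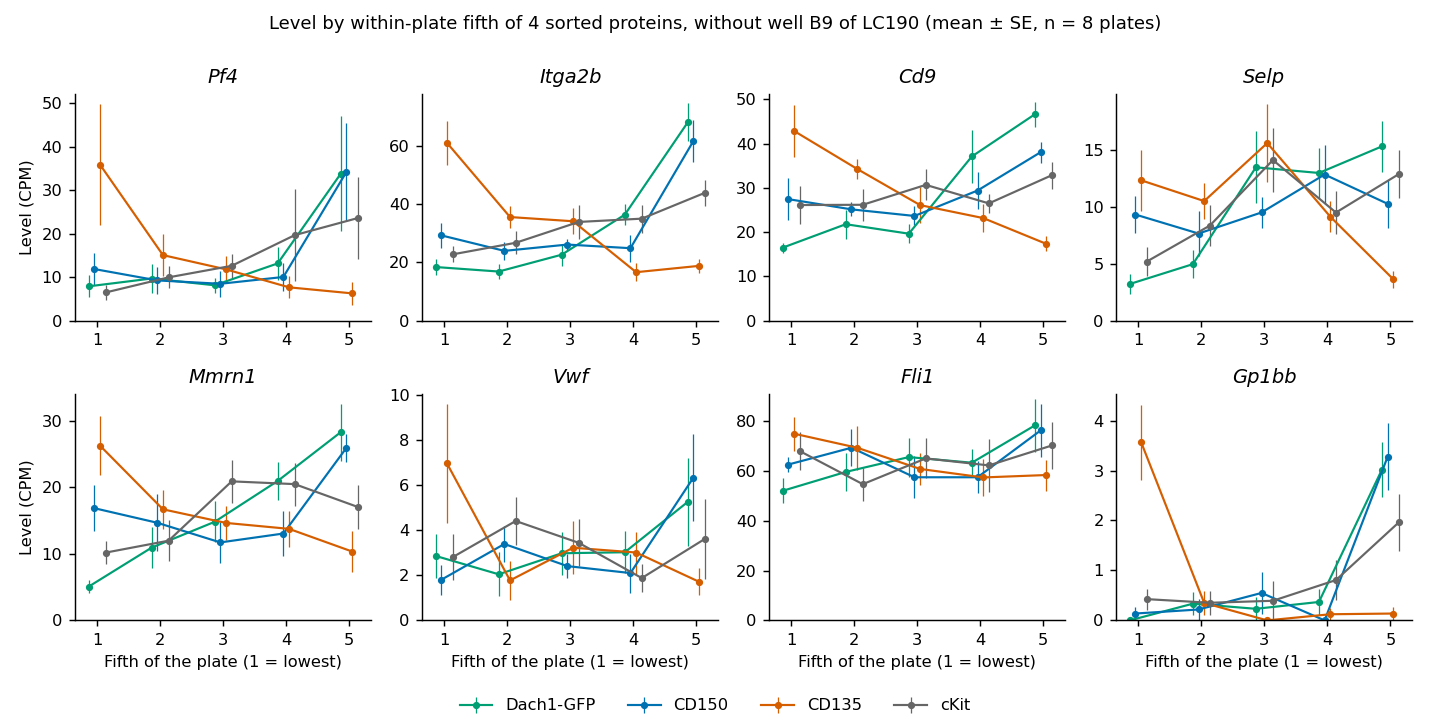
Level (y axis, CPM, mean ± SE of 8 plates) of the 8 genes by within-plate quintile of Dach1-GFP, CD150, CD135 and cKit (x axis, 1 is the lowest), without well B9 of LC190. Itga2b and Pf4 are flat over the lower quintiles of CD150 and stand at 61.7 and 34.2 CPM in the highest, while Mmrn1 goes up across all quintiles of Dach1-GFP.

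Because the 4 proteins go together, each was also compared with the other 3 held in 1 model, as median splits over 16 combinations a plate (119 sums, with 9 sums of under 5 cells left out). Sums of 1 plate share the plate, so the spread behind these p-values is that between sums within plates. A median split is a smaller contrast than a tercile: on its own it gave log2 differences by Dach1-GFP of 1.69 for Pf4, 1.48 for Mmrn1, 1.39 for Itga2b, 0.98 for Cd9 and 0.38 for Fli1. With CD150, CD135 and cKit in the model, Mmrn1 rose with Dach1-GFP by 1.38 ± 0.24 (adjusted p = 1.9e-06 in edgeR), Itga2b by 0.95 ± 0.17 (adjusted p = 7.5e-06) and Cd9 by 0.83 ± 0.15 (adjusted p = 9.4e-06). That is 3 of 5 tested genes, beside 8.58% of 8527. Pf4, at 0.73 ± 0.27, and Fli1, at 0.31 ± 0.11, missed the threshold (adjusted p = 0.073 and 0.067). Each passed once 1 plate was left out, Pf4 without LC190 (0.98, adjusted p = 0.023) and Fli1 without LCE408 (0.35, adjusted p = 0.042). Selp was too sparse for this edgeR model, while DESeq2, run on it without that filter, gave 1.45 ± 0.27 by Dach1-GFP (adjusted p = 1.1e-05) and no call by the other 3 proteins.

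CD135 kept a difference for Itga2b and, less firmly, for Pf4. Itga2b fell by 0.66 ± 0.17 with CD135 (adjusted p = 0.0025 in edgeR) and Pf4 by 0.81 ± 0.27 (adjusted p = 0.035), 2 of 5 tested beside 11.3% of 8527 genes. The Pf4 call was lost without well B9 (-0.70 ± 0.27, adjusted p = 0.072) and without any of the plates LC190, LCE409, LCE407 or LCE410 (adjusted p of 0.074 to 0.14). The adjusted CD135 differences of Mmrn1 (0.12 ± 0.22), Cd9 (-0.27 ± 0.15) and Fli1 (-0.12 ± 0.11) did not pass, whereas each had passed between CD135 terciles. With the other 3 proteins in the model, CD150 called 0 of the 5 tested genes in edgeR, beside 0.692% of 8527. Pf4, at 0.74 ± 0.25 (adjusted p = 0.22), was the only 1 of them with an unadjusted p under 0.05. By cKit 0 of 5 were called, beside 0.387% of 8527, and none had an unadjusted p under 0.05. DESeq2 called 0 of these 5 genes by CD150 and by cKit as well.

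**Figure D4:**
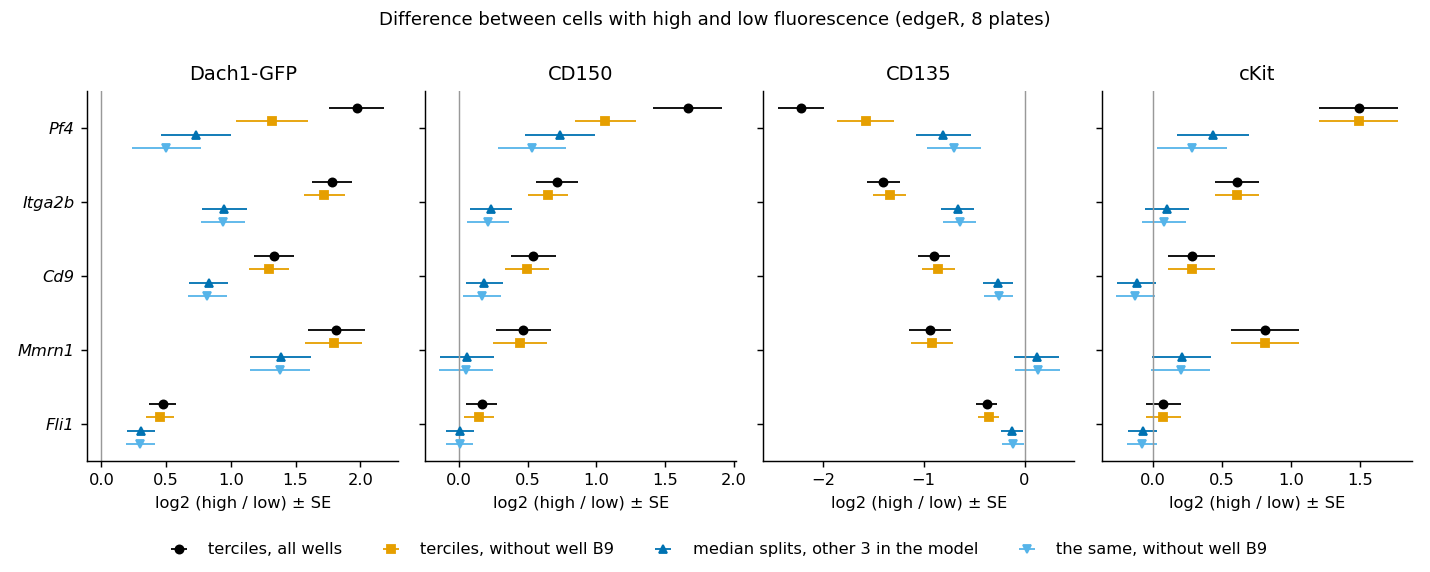
Log2 difference between high and low fluorescence (x axis, ± SE, edgeR, 8 plates) for the 5 tested genes (y axis) by each protein, from terciles and from median splits with the other 3 proteins in the model, each with and without well B9. Mmrn1 stands at 1.82 and 1.38 by Dach1-GFP, while by CD135 its values are -0.94 and 0.12.

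CD150 and CD135 were also read together. Gp1bb had 0 counts in 545 cells that were CD150-high and CD135-high, and 26 counts in 810 cells that were CD150-high and CD135-low, 7 of them from well B9. Without well B9, Pf4 averaged 7.99 ± 7.08 CPM in CD150-high CD135-high cells and 8.15 ± 7.50 in CD150-low CD135-high cells, and 27.5 ± 26.3 in CD150-high CD135-low cells and 13.5 ± 13.8 in CD150-low CD135-low cells (SD, n = 8). Without all 4 wells with over 20% of a plate's Pf4, the CD150-high CD135-low value was 18.3 ± 12.8 CPM. Itga2b, over all wells, averaged 19.9 ± 9.09 CPM in CD150-high CD135-high cells and 19.7 ± 10.4 in CD150-low CD135-high cells, and 54.5 ± 18.0 in CD150-high CD135-low cells and 34.9 ± 7.06 in CD150-low CD135-low cells. The test of whether the CD150 difference depends on CD135 called 0 of 6 tested genes, beside 0.0195% of 10274 genes, which is 2 genes in edgeR at the threshold and 783 at an unadjusted p under 0.05, and 4 genes in DESeq2. Its values were -1.58 ± 0.47 for Pf4 (adjusted p = 0.26, and 0.64 without well B9), -1.24 ± 0.37 for Mmrn1 (adjusted p = 0.26) and -0.59 ± 0.29 for Itga2b (adjusted p = 0.65), all 3 with an unadjusted p under 0.05, and DESeq2 also called 0 of the 8 genes. A negative value means a larger CD150 difference among CD135-low cells.

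Of the genes called, Zfpm1, named after its values were seen, is a transcription regulator in the list of megakaryocyte factors (-1.10 ± 0.22, adjusted p = 0.025 in edgeR). Among CD135-high cells Zfpm1, the cofactor of GATA proteins, averaged 28.2 ± 8.09 CPM with high CD150 and 35.0 ± 13.7 with low CD150, and among CD135-low cells 68.4 ± 8.46 with high CD150 and 40.4 ± 11.2 with low CD150. Leaving out 1 plate at a time gave 1 to 7 called genes.

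Among CD135-low cells, Mmrn1 was lower where CD48 was high. CD48 separates stem cells, which lack it, from several progenitors, and it was recorded on the 4 LCE plates. With CD150 in the model, Mmrn1 fell by 2.08 ± 0.30 in CD48-high cells (adjusted p = 1.4e-06 in edgeR), the only 1 of 4 tested genes to pass, beside 7.38% of 5081 genes. On plates LCE407, LCE408, LCE409 and LCE410 in that order, Mmrn1 had 20.4, 12.8, 12.7 and 15.7 CPM in CD48-high CD150-high cells, against 66.9, 48.2, 50.7 and 84.3 CPM in CD48-low CD150-high cells. Among CD150-low cells it had 3.86, 9.52, 14.4 and 3.80 CPM in CD48-high cells, against 33.4, 48.0, 27.4 and 51.1 CPM in CD48-low cells. CD48-high and CD48-low cells did not overlap. The call held without each plate in turn, with a difference of -2.27 to -1.85, and in DESeq2 (-2.10). Cd9 (-0.55 ± 0.24, adjusted p = 0.17), Fli1 (-0.19 ± 0.19, 0.65) and Itga2b (-0.09 ± 0.24, 0.88) did not pass. That Mmrn1 passed and the others did not was not itself tested as a difference between genes. In the same CD48-high cells 6 of 7 tested stem cell genes fell (median -0.84), as did 6 of 11 megakaryocyte factors, 2 of 3 receptor genes and 4 of 4 erythroid genes, while 4 of 6 B lineage genes rose, and their part in the Mmrn1 difference was not tested.

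The other genes had few counts in these cells. Pf4 averaged 18.2 ± 9.16 CPM in CD48-high CD150-high cells and 42.7 ± 38.1 in CD48-low CD150-high cells without the wells that held over 20% of a plate's Pf4, and the plates overlapped. Cd9 averaged 38.9 ± 14.1 CPM in CD48-high CD150-high cells and 69.1 ± 13.98 CPM in CD48-low CD150-high cells (SD, n = 4), but 32.5 ± 2.80 and 32.6 ± 19.1 CPM in the CD150-low cells with high and low CD48. Vwf had 7 counts in 198 CD48-high CD150-high cells and 16 in 138 CD48-low CD150-high cells, and 6 of these 16 came from well L8 of LCE409. The CD150 effect among CD135-low cells, with CD48 in the model, called 0 of the 4 tested genes in edgeR, beside 0.216% of 5081, and 0 in DESeq2. It was 0.77 ± 0.24 for Itga2b (adjusted p = 0.20), 0.71 ± 0.29 for Mmrn1 and 0.69 ± 0.24 for Cd9, all 3 with an unadjusted p under 0.05. Leaving out 1 plate at a time called none of the 4. Pf4 had enough counts for the test only without LCE408 or without LCE410, and was then called higher in CD150-high cells (1.46 to 1.48, adjusted p of 0.028 and 0.038 in edgeR). Both fits keep wells L8 of LCE409 and M5 of LCE407, with 22 and 29 Pf4 counts, in the CD150-high cells, and no such fit was made without them.

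**Figure D5:**
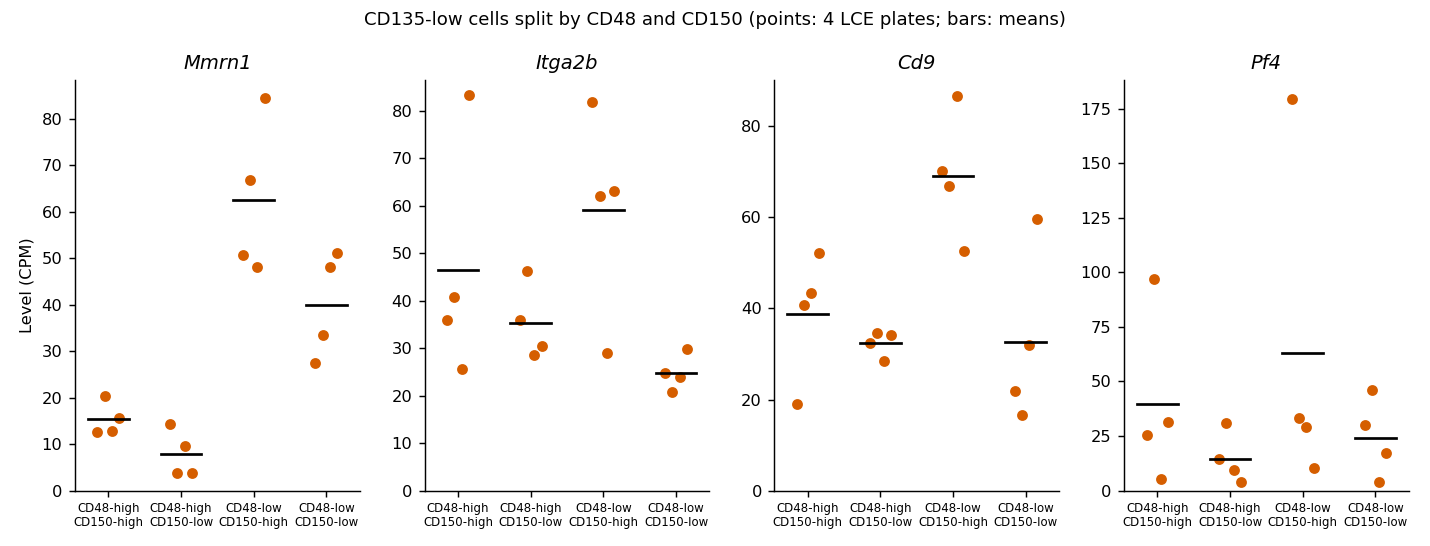
Level (y axis, CPM) of Mmrn1, Itga2b, Cd9 and Pf4 in CD135-low cells split by CD48 and CD150, with 1 point for each of 4 LCE plates and a bar at the mean, all wells. For Mmrn1 all points of CD48-high cells lie at or below 20.4 CPM and all points of CD48-low cells at or above 27.4 CPM, while the points of the other 3 genes overlap.

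Counted once per cell, so that no well can set the value, cells with RNA of a gene could also be compared by rank. With cells thinned to 3000 counts, cells with Mmrn1 RNA had a median Dach1-GFP rank 20.1 ± 7.22 points above that of cells without it (mean and SD of 8 plates, above on 8 of 8), and a CD135 rank 16.8 ± 11.02 points below. Cells with Cd9 RNA lay 15.3 ± 6.93 points higher in Dach1-GFP, on 8 of 8 plates, and 19.5 ± 7.72 points lower in CD135. For Pf4 the Dach1-GFP difference was 9.31 ± 7.40 points over 7 plates. Its CD150 rank lay 1.94 ± 10.9 points lower in cells with Pf4 RNA than in cells without, and 14.3 ± 14.7 points higher when cells were not thinned. On LCE plates median depth was 6506 to 8178 counts in CD150-high cells and 4878.5 to 6349 in CD150-low cells. The part of depth in this shift was not tested. For Itga2b the differences were 17.2 ± 11.6 points in Dach1-GFP and -15.9 ± 10.4 in CD135. The thinned shares of Pf4 and Itga2b were close to those in B lineage cells, so no order is read from these values. For Fli1 the Dach1-GFP difference was 3.98 ± 8.46 points, within the spread between plates.

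Few cells had RNA of several of the 8 genes. Of 2672 cells with at least 3000 counts, 1711 had none after thinning, 754 had 1 gene, 180 had 2, 20 had 3, 4 had 4, and 1 cell each had 5, 6 and 7. The median Dach1-GFP rank was 45.3 in cells with none, 55.1 with 1 gene, 70.3 with 2 and 89.3 with 3, and the median CD135 rank was 54.5, 46.2, 36.3 and 16.0 in the same order. The 3 cells with 5 or more had Dach1-GFP ranks of at least 95.1 and CD135 ranks of at most 4.56. Cells with a count of both Pf4 and Itga2b numbered 14, out of 98 cells with Pf4 and 221 with Itga2b. The limit on shares of cells given above holds for these counts too.

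Other genes of the lineage were read in 4 lists, which hold 17 platelet receptor genes, 13 granule genes, 14 signalling and cytoskeleton genes and 13 transcription factors. Of receptor and adhesion genes, 7 could be tested and 6 rose in Dach1-GFP-high cells, beside 7.89% of all genes called, among them Esam, a junction protein (2.72 ± 0.30), F2r, the thrombin receptor (1.19 ± 0.19) and Itga6, an integrin chain (1.18 ± 0.11). Their median was 1.18, beside -0.00 over all genes tested. Of transcription factors 8 of 13 rose and 0 fell, with Gata2 at 1.32 ± 0.09, Mecom at 1.23 ± 0.15 and Meis1 at 0.73 ± 0.08 (median 0.64 for the list). Of granule genes 2 of 5 rose, Slc18a2, the vesicular monoamine transporter (2.61 ± 0.21), and Srgn, the granule proteoglycan serglycin (0.19 ± 0.03). Of signalling and cytoskeleton genes 3 of 9 rose, Rgs18 (0.48 ± 0.09), Nrgn (0.43 ± 0.07) and Tln1 (0.19 ± 0.06). The medians of these last lists were both 0.13. With the other 3 proteins in the model, Dach1-GFP called 5 of 5 receptor genes, 2 of 4 granule genes and 4 of 9 signalling genes higher, and 8 of 13 transcription factors higher with 1 lower, beside 8.58% of all genes.

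In CD135-high cells, where 11.2% of all genes were called, 4 of 6 receptor genes fell, with Cd63, a tetraspanin of granules, at -1.07 ± 0.09 and F2r at -0.89 ± 0.20. Of the transcription factors 7 of 13 fell and 1 rose, with Gata1 at -2.59 ± 0.27 and Gfi1b at -1.89 ± 0.26, both needed by megakaryocytes and red cell precursors alike. Of 5 granule genes Slc18a2 (-2.30 ± 0.22) and Srgn (-0.25 ± 0.03) fell and Nbeal2, needed for alpha granules, rose (0.62 ± 0.14), and of 9 signalling genes Dok2 rose (0.88 ± 0.21). In CD150-high cells, where 2.08% of all genes were called, 4 of 13 factors rose, among them Gata1 (1.37 ± 0.25), Zfpm1 (0.68 ± 0.14) and Gata2 (0.37 ± 0.09), with Esam among 7 receptors (1.36 ± 0.30) and Slc18a2 among 5 granule genes (1.04 ± 0.22), while Nbeal2 fell (-0.60 ± 0.13) and 0 of 9 signalling genes passed. With the other proteins in the model, CD150 called 0 genes of the 4 lists in edgeR. In that model CD135 called 1 of 5 receptor genes higher and 1 lower, beside 11.3% of 8527 genes. Of 13 factors it called 3 higher and 5 lower, and of 4 granule genes 1 higher and 2 lower. Of 9 signalling genes it called 3 higher and 0 lower. The medians of receptor genes and of factors were both -0.05. By cKit, where 3.68% of all genes were called, 1 of 7 receptor genes rose (Itga6, 0.49), 1 of 5 granule genes (Slc18a2, 0.66), 1 of 9 signalling genes (Nrgn, 0.24) and 2 of 13 factors (Zfpm1, 0.42, and Gata2, 0.41), and 0 fell.

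Genes that mark mature platelets were sparse, with at most 169 counts each. Of 11 fixed genes, Gp9 had 169 counts, Itgb3 117, Gp5 84, Treml1 29, Gp1ba 26, Clec1b 10, Ppbp 9, Alox12 6, Mpig6b 2 and Tubb1 1, in all 2712 cells, while Gp6 had none. Their summed level was 16.6 to 40.0 CPM in Dach1-GFP-high cells and 2.17 to 13.8 CPM in Dach1-GFP-low cells over the 8 plates, and 3.32 to 10.7 CPM in CD135-high cells and 11.3 to 35.9 CPM in CD135-low cells. By CD150 the ranges were 15.5 to 40.3 CPM in CD150-high cells and 3.17 to 25.0 CPM in CD150-low cells. By cKit they were 14.4 to 32.8 CPM in cKit-high cells and 4.85 to 21.1 CPM in cKit-low cells. Each was too sparse for the main test. Without the 6 wells that had RNA of at least 3 of these genes, Pf4 still rose with Dach1-GFP, by 1.20 (adjusted p = 0.0017 in edgeR), and with CD150, by 0.93 (adjusted p = 0.016).

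RNA of other cell types moved with the same terciles. Mast cell and basophil genes, of which 6 of 9 had counts and Gzmb, Cma1 and Tpsb2 none, summed to 51.3 to 285 CPM in Dach1-GFP-high cells and 17.3 to 67.7 CPM in Dach1-GFP-low cells, and to 17.9 to 57.4 CPM in CD135-high cells and 49.0 to 287 CPM in CD135-low cells. Slc18a2 is also a mast cell gene. The 12 stem cell genes summed to 1335 to 1641 CPM in Dach1-GFP-high cells and 937 to 1086 CPM in Dach1-GFP-low cells. All 12 endothelial genes had counts, at 140 to 232 CPM in Dach1-GFP-high cells and 140 to 250 CPM in Dach1-GFP-low cells. The 8 macrophage genes stood at 29.9 to 104 and 18.6 to 81.3 CPM in the same cells, and the 10 erythroid genes at 74.5 to 236 and 70.1 to 999 CPM. Although these erythroid ranges overlap, 5 of 5 tested erythroid genes were called lower in Dach1-GFP-high cells, among them Hba-a2 (-1.97 ± 0.28). There 7 of 7 tested B lineage genes were also lower (median -2.42), while 7 of 7 stem cell genes and 2 of 2 mast cell genes were higher. Of 2 tested macrophage genes 1 was lower, and of 4 endothelial genes 1 was higher and 1 lower. By CD135, the erythroid genes stood at 64.1 to 242 CPM in CD135-high cells and 89.1 to 1031 CPM in CD135-low cells, with 5 of 6 tested genes lower (median -1.44), and 8 of 8 B lineage genes were lower in CD135-high cells. By CD150, the macrophage genes stood at 20.7 to 146 CPM in CD150-high cells and 23.2 to 65.0 CPM in CD150-low cells, with 2 of 3 tested genes higher, 4 of 8 B lineage genes were higher, and 4 of 6 erythroid genes were lower with 1 higher. By cKit, 4 of 7 B lineage genes and 3 of 7 erythroid genes were lower in cKit-high cells, with 1 erythroid gene higher. Of 7 tested stem cell genes, 0 were higher and 2 lower in CD150-high cells (median -0.18). In CD135-high cells 1 of the 7 was higher and 2 were lower, and in cKit-high cells 2 were higher and 0 lower. B lineage cells numbered 4 in Dach1-GFP-high and 106 in Dach1-GFP-low terciles, 73 and 18 in CD150-high and CD150-low, 12 and 82 in CD135-high and CD135-low, and 44 and 62 in cKit-high and cKit-low. Without them the Dach1-GFP differences were 2.04 for Pf4, 1.80 for Itga2b, 1.69 for Mmrn1 and 1.27 for Cd9. The part of the other cell types in these results was not tested. Median depth per cell was 6025 to 7699 counts in Dach1-GFP-high and 5392.5 to 7170 in Dach1-GFP-low terciles of LCE plates, and 12362 to 14605 and 10721 to 14239 on LC plates. By CD150 it was 6506 to 8178 and 4878.5 to 6349 on LCE plates, without overlap, and 10742 to 12667 and 11275 to 12636 on LC plates. By CD135 it was 5763 to 7782 and 5566 to 7450, and 11796 to 14078 and 10742 to 13978. By cKit it was 6602 to 8235 and 5208.5 to 7458, and 11951 to 15977 and 10492 to 12546.

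The 2 sets of plates were compared through the difference of each tercile effect, LCE minus LC. No tested gene of the 8 differed past the threshold by any of the 4 proteins, beside 0.0872% of 10317 genes by Dach1-GFP, 0.693% of 10384 by CD150, 0.655% of 10383 by CD135 and 0.134% of 10456 by cKit. The lowest adjusted p was that of Itga2b by cKit, where the LCE effect exceeded the LC effect by 1.10 ± 0.32 (adjusted p = 0.19 and unadjusted p = 0.0010 in edgeR). On its own, the cKit difference of Itga2b was 1.38 ± 0.25 on LCE plates and 0.27 ± 0.17 on LC plates. For Pf4 by CD150 the LCE effect was lower by 1.11 ± 0.47 (adjusted p = 0.43). Mmrn1 by Dach1-GFP, Cd9 by CD135 and Pf4 by cKit also had an unadjusted p under 0.05, with adjusted p of 0.65, 0.48 and 0.70. DESeq2 was not run on these differences.

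The genes whose level followed each of the 8 most closely were read over 96 points (8 plates, 4 proteins and 3 terciles) without well B9, as Pearson's r of centred log2(CPM + 1) among 10386 genes. The points share cells and plates, so r is a description with no p. Itga2b was most like Gata2 (r = 0.85) and Dach1 (0.83). Pf4 was most like Itga2b (0.75), with Apoe (0.73) also among its nearest, and Gp1bb was most like Gata2 (0.73) and Itga2b (0.70). Mmrn1 was most like Serpina3g (0.77), with Gng11 (0.74) also among its nearest, Cd9 like Slc18a2 (0.75), Apoe (0.75) and Sox6 (0.73), and Selp like Ndrg1 (0.72), Ptpn7 (0.70) and Muc13 (0.68). For Fli1 the highest r was 0.56, with Stard4, and for Vwf 0.56, with Gm20150. Among the 8 genes themselves, Pf4 with Itga2b was the highest pair, Itga2b with Gp1bb next (0.70), and Vwf with Selp the lowest (-0.04).

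Counting could mix some genes with neighbours. In the annotation Fli1 overlaps Gm37474 on its own strand, which had 1155 counts beside the 1912 of Fli1, and Gp1bb overlaps Sept5, also on its own strand, which had 2 counts. Values of Fli1 and Gp1bb are uncertain to that extent.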

How the data were processed

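What was measured is single-cell RNA in 8 plates of 1 group. The tables hold raw counts per gene and well, deposited by the authors, per the file headers, and the sort records hold fluorescence intensity per cell, also deposited by the authors. The submitters' processing notes name the build GRCh38, a human build, although the identifiers are mouse Ensembl genes. How reads were aligned and counted, and whether molecular identifiers and strand were used, is not given in the sources used here. Of 27318 identifiers, 27249 matched an annotated gene.

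Cells with under 1000 counts, under 500 genes or at least 20% mitochondrial counts were left out, as were 13 sort records without a listed barcode. Fluorescence was ranked within each plate, and counts were summed per plate and tercile. Main test: edgeR 4.0.16 (quasi-likelihood, TMM, filterByExpr) in R 4.3.3 with the plate as block, since both terciles of a pair are cut from 1 plate, and Benjamini-Hochberg adjustment over all genes tested. An SE is the log2 difference divided by the root of F. Alternatives were DESeq2 1.42.0, other size factors, no filter, thinning to 3000 counts, other cuts, scatter-corrected fluorescence, no block, and leaving out wells, B lineage cells or plates. The scripts were tested on simulated data. Descriptions used Python 3.11.15.

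The 8 genes were named in each of the 4 tercile comparisons, with up to 4 called genes of each other list by size of difference. Some genes that these rules would name are not reported here. The genes and lists were chosen with earlier results of these data known. Totals were 2091816 to 5192543 counts a plate.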

Additional observations from a re-analysis of the deposited data

Results flagged for a closer look

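Of 72 groups of 8 plates examined for a plate far from the others, 2 had one, where chance gives about 1 in 20. Cd9 in Dach1-GFP-low cells had 30.7 CPM on LCE408, against 12.0 to 17.3 CPM on the other 7 plates. Gp1bb in CD150-high cells had 7.64 CPM on LC190, the plate with well B9, against 0 to 2.60 CPM on the others.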

How the results depend on the processing

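Of the log2 differences of the 8 genes under the alternatives, 739 kept their side of the threshold, 51 lost the call and 3 gained it. No difference changed direction where the main or the alternative fit called it. Differences called in neither fit could change sign and count among the 739, as did Fli1 by CD150 (0.16, lowest -0.19). Of 72 rank differences 4 moved by over 1 SD, each without thinning. The causes were not tested, but thinning and single sets of plates leave fewer counts and samples.

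Genes past the threshold by Dach1-GFP (814) came to 260 when thinned, 473 scatter-corrected on LCE plates, 474 in DESeq2, 195 without the replicate block, 437 on LC and 515 on LCE plates. By CD150 (216) they came to 66, 127, 81, 7, 84 and 476 in the same order. By CD135 (1161) they came to 212, 448, 629 and 172, and 336 on LCE plates. By cKit (385) they came to 97, 209, 175 and 7, and 177 on LC plates. Without the block, the adjusted counts were 431 for Dach1-GFP (732), 0 for CD150 (59), 537 for CD135 (963) and 2 for cKit (33). The dependence of CD150 on CD135 (2) gave 4 in DESeq2 and 0 without the block, CD48 (375) gave 177 and 147, and CD150 beside CD48 (11) gave 2 and 1.

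Of the 8 genes, Dach1-GFP called 5, but 2 when thinned, 3 by quintiles and 3 without the block. CD150 called 2, but 1 without the wells over 20% of a plate, 0 when thinned, 1 in DESeq2, 0 without the block and 1 on LC plates. CD135 called 5, but 1 when thinned, 3 scatter-corrected, 2 without the block, 3 on LC and 3 on LCE plates. cKit called 3, but 0 when thinned, 1 by quintiles, 1 scatter-corrected, 1 in DESeq2, 0 without the block, 0 on LC and 1 on LCE plates. Adjusted CD135 called 2, but 1 without well B9, 1 in DESeq2 and 1 without the block. A gene too sparse to be tested in a setting counts as not called in these numbers. By Dach1-GFP, Mmrn1 was called in 20 of the 20 alternatives that could test it, and Pf4 in 19 of 20. Itga2b and Cd9 were each called in 22 of 22, and Fli1 in 17 of 22. Thinned, 5343 genes were tested by Dach1-GFP, against 10317 in the main fit. By cKit, Pf4 was called in 12 of 14.

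Leaving out 1 plate at a time gave 627 to 802 genes and 5 to 6 of the 8 for Dach1-GFP, 148 to 261 and 2 to 3 for CD150, 835 to 1231 and 4 to 5 for CD135, and 307 to 385 and 1 to 2 for cKit. Adjusted, it gave 469 to 712 and 3 to 5, 23 to 81 and 0, 627 to 942 and 1 to 2, and 12 to 44 and 0 in that order of proteins. It gave 1 to 7 and 0 for the dependence of CD150 on CD135, 181 to 304 and 1 for CD48, and 15 to 24 and 0 to 1 for CD150 beside CD48. Here too a gene too sparse to be tested counts as not called. By cKit, Pf4 could be tested in 4 of 8 such fits and was called in those 4. Itga2b was called in 5 of 8 and Mmrn1 in 3 of 8.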
